A study of Mus musculus with 7 samples.

Results

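The genes described here are 57 genes that act in the G2 phase of the cell cycle and in mitosis, among them *Cdk1*, the cyclins A and B, the Polo-like and Aurora kinases, the spindle checkpoint, the kinetochore, condensin and the motors of the spindle. They were chosen by name and function, by a rule that uses no measured value, although earlier results of these data were known. All 57 were found, each in 1 row, among the 14732 genes listed for this experiment. RNA from outflow tracts (OFTs) of mouse embryos at embryonic day (E) 11.5 was sequenced to ask how loss of 1 copy of *Gata6*, which encodes a zinc finger transcription factor, alters gene expression in the tissue that forms the arterial valves. In the embryo, blood leaves the heart through the OFT, which later becomes the roots of the aorta and the pulmonary artery. There were 3 control pools, labelled WT (replicates 3, 4 and 5), and 4 *Gata6STOP/+* pools (replicates 1, 3, 4 and 5), 7 pools in all, whose values are given in this order throughout. *Gata6STOP/+* embryos carry, in all of their cells, 1 wild-type *Gata6* allele and 1 allele with a premature stop codon made by CRISPR-Cas9 editing, and the line was backcrossed to C57BL/6. Each pool joined OFTs of several embryos, so that differences between embryos are averaged within a pool. In these bulk samples, fewer cells of a type and less RNA per cell cannot be told apart.

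A cell enters mitosis when cyclin-dependent kinase 1, bound to cyclin A or B, is freed of inhibitory phosphates. The Polo-like and Aurora kinases then mature the centrosomes and build the spindle, condensin and topoisomerase II compact the chromosomes, and the spindle assembly checkpoint holds back the anaphase-promoting complex (APC/C) until every kinetochore is attached. Most of these genes are transcribed mainly in G2 and M phase, through the MuvB complex with B-MYB and FOXM1, and are kept low in quiescent cells by the DREAM complex. Their transcripts are therefore often read as a measure of how many cells of a tissue are dividing. At this stage the OFT holds myocardium, endocardium, cushion mesenchyme and neural crest-derived cells, many of which still cycle.

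The 57 genes had close to the same expression in *Gata6STOP/+* and control OFTs. Expression is given as CPM, the reads of a gene scaled to a common library size that the authors normalized between pools, and differences as log2 fold changes of *Gata6STOP/+* over control on the scale log2(CPM + 0.5), with the standard error (s.e.) of the limma fit. The median difference of the 57 genes was 0.010, beside -0.00073 for all listed genes. Single genes ranged from -0.14 for *Pttg1* to 0.19 for *Knl1*, and the mean of *Gata6STOP/+* pools lay between 90.5 and 114% of the control mean, within 90 to 110% for 56 of the 57. Of the 57 genes, 31 were higher and 26 were lower in *Gata6STOP/+* OFTs, and 49.8% of all listed genes were higher. With limma, 0 of the 57 passed an adjusted *P*-value of 0.05, and 0% of all listed genes did so (smallest adjusted *P*-value 0.097). An unadjusted limma *P*-value under 0.05 was found for 0 of the 57 genes, beside 8.06% of all listed genes (1187 of 14732). The *Gata6STOP/+* and control pools overlapped for each of the 57 genes, whereas 8.47% of all listed genes (1248) had every *Gata6STOP/+* pool above or every one below all control pools. EdgeR, with the quasi-likelihood and the likelihood ratio test, and DESeq2, run on reads recovered from the CPM, likewise gave 0 of the 57 genes, adjusted or unadjusted. Over all listed genes, the adjusted threshold was passed by 0 genes with the quasi-likelihood test (1177 unadjusted), 105 with the likelihood ratio test and 88 with DESeq2. *P*-values measure the spread between pools, and the labels do not say whether pools came from separate litters.

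The fit set bounds on each difference. The s.e. ranged from 0.054 to 0.12 on the log2 scale, with a median of 0.078. The 95% intervals of the limma fit reached down to -0.35, a 0.784-fold level, and up to 0.43, a 1.35-fold level. They lay within a 1.1-fold change in either direction for 1 of the 57 genes and within 1.2-fold for 38. Bounds of 1.3-fold held for 55 and of 1.5-fold for all 57. A change of more than 1.1-fold thus lay within the intervals of all but 1 gene. Counting error is part of this spread for the genes with the fewest reads, and each gene had between 323 and 16123 reads in every pool.

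**Figure D1:**
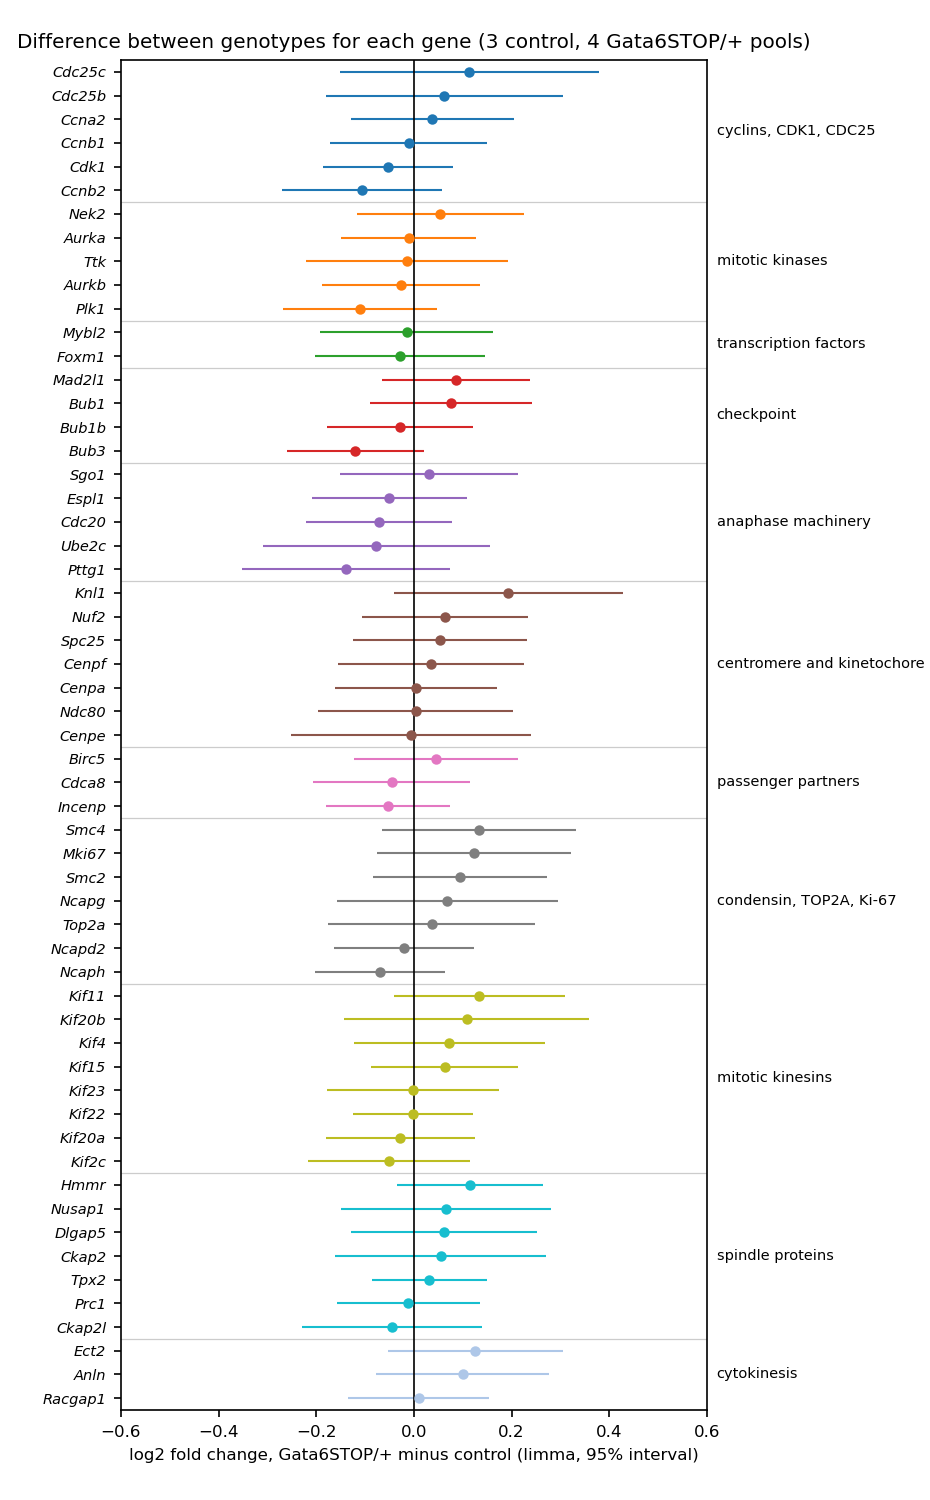
Difference between genotypes for each of the 57 genes, ordered by role and then by size. Points are log2 fold changes of *Gata6STOP/+* (4 pools) over control (3 pools) and bars are 95% intervals of the limma fit. Every interval includes 0, and the points run from -0.14 (*Pttg1*) to 0.19 (*Knl1*).

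In the whole series, listed genes took 17783655 to 29035529 reads per control pool and 24736761 to 34467710 reads per *Gata6STOP/+* pool. *Gata6* itself had 315, 257 and 286 CPM in the control pools and 268, 203, 219 and 217 CPM in the *Gata6STOP/+* pools, and 1 *Gata6STOP/+* pool, replicate 1, lay above the lowest control pool. Its mean was 286±28.9 CPM in control and 227±28.7 CPM in *Gata6STOP/+* OFTs (mean±s.d.). The log2 difference was -0.34±0.099 (limma, unadjusted *P*-value 0.00579, adjusted 0.389), in a fit where 0 of 14732 listed genes passed the adjusted threshold. All 10 cardiomyocyte, all 8 endothelial, all 6 cushion and all 5 smooth muscle markers were listed, while *Foxd3* of the neural crest, *Fgf8* of the second heart field and the epithelial markers *Epcam*, *Cdh1*, *Foxa2* and *Nkx2-1* were not. Blood was present in all pools and varied between them: the 8 erythroid markers summed to 2241 to 5434 CPM in control and 2613 to 6813 CPM in *Gata6STOP/+* pools, and all 8 had a log2 difference above 0. The sum of the cardiomyocyte markers was 22810 to 25590 CPM in control and 18590 to 26350 CPM in *Gata6STOP/+* pools, and 8 of the 10 were lower. Of the 8 endothelial markers, 6 were higher and 2 lower, with log2 differences from -0.55 to 0.24. All 4 listed second heart field markers were higher, with sums of 42.7 to 52.4 CPM in control and 54.8 to 81.3 CPM in *Gata6STOP/+* pools. Of the 4 listed neural crest markers 1 was higher, and of the 5 macrophage markers 2 were. The 5 smooth muscle markers had log2 differences above 0, with sums of 2480 to 2939 CPM in control and 2592 to 3454 CPM in *Gata6STOP/+* pools, and the 6 cushion markers had log2 differences below 0, with sums of 2924 to 3521 and 2411 to 3223 CPM. The part of such differences in cell composition in the values of the mitotic genes was not tested.

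The mitotic genes varied more between pools of the same genotype than between the genotypes. The mean of log2(CPM + 0.5) over the 57 genes was 6.212, 6.277 and 6.329 in control pools 3, 4 and 5, and 6.306, 6.333, 6.174 and 6.353 in *Gata6STOP/+* pools 1, 3, 4 and 5. The lowest and the highest of the 7 values thus both came from *Gata6STOP/+* pools. *Gata6STOP/+* replicate 4 was the lowest pool for 27 genes, among the lowest 2 for 47, and the highest for none of the 57. Control replicate 3 was the lowest for 16 genes and among the lowest 2 for 31, but the highest for 5 and among the highest 2 for 11. Both of these pools lay below all of the other 5 for 28 genes. The pools with most genes at their highest value were *Gata6STOP/+* replicate 5, with 17 genes, and control replicate 5 and *Gata6STOP/+* replicate 3, with 11 each. On listed genes, control replicate 3 had 20930875 reads and *Gata6STOP/+* replicate 4 had 24736761, the second and the third fewest of the 7 libraries. The deepest library, *Gata6STOP/+* replicate 5 with 34467710 reads, had the highest mean of the 57 genes, and the shallowest, control replicate 5 with 17783655 reads, had the third highest. The summed smooth muscle markers were at their highest, 3454 CPM, in *Gata6STOP/+* replicate 4, and were 2939 CPM in control replicate 3. The summed cushion markers were at their highest, 3521 CPM, in control replicate 3, but were 2736 CPM in *Gata6STOP/+* replicate 4. The part of depth and of these cell types in the mitotic values was not tested.

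**Figure D2:**
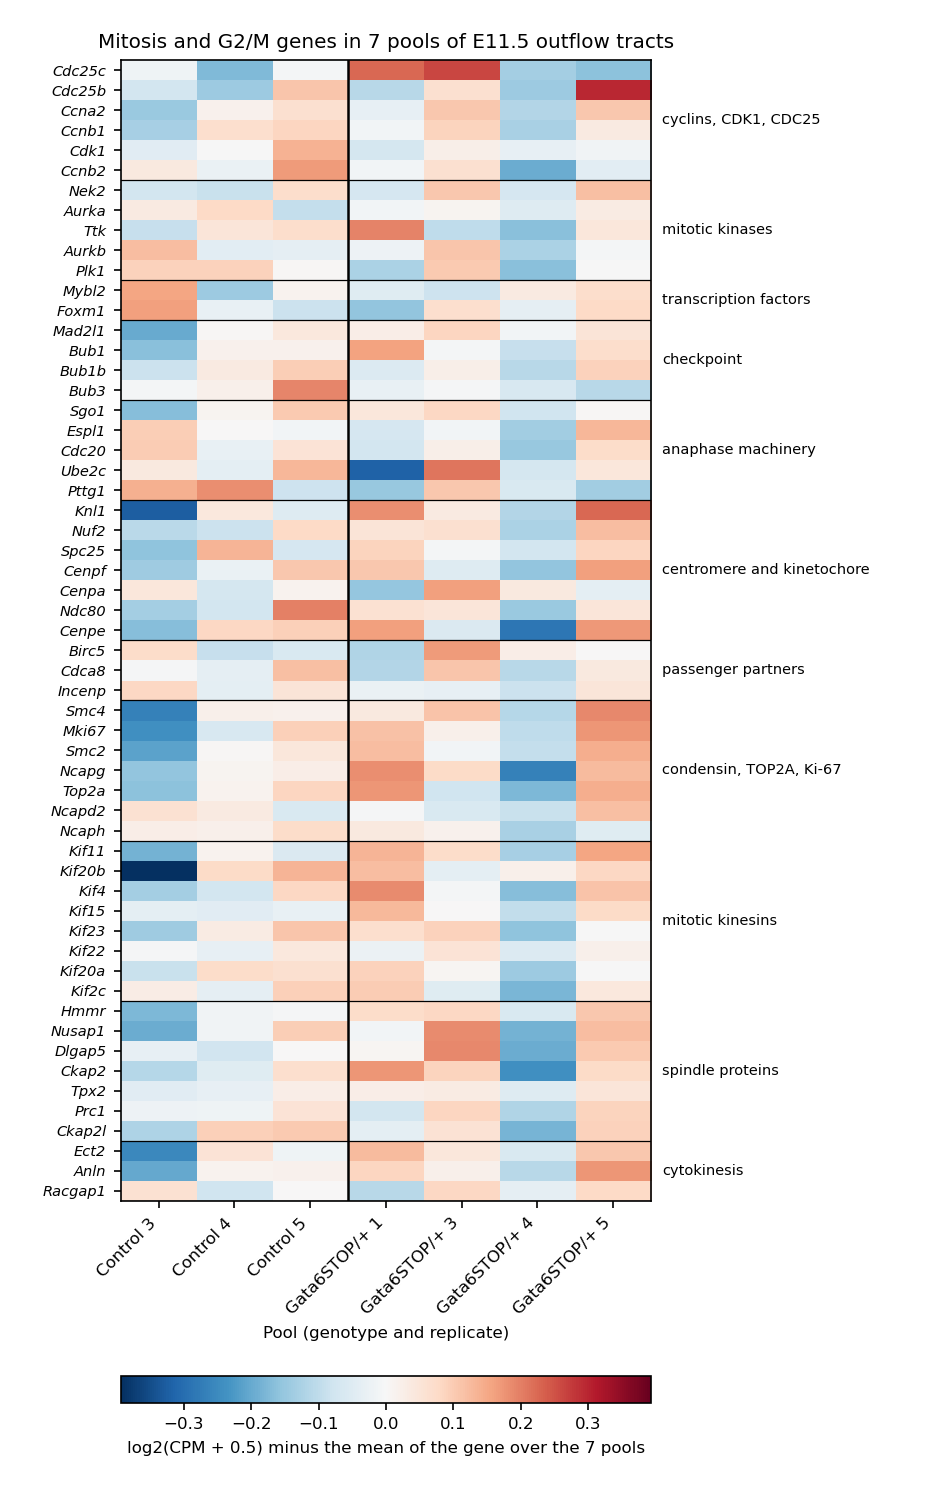
Values of the 57 genes in the 7 pools, as log2(CPM + 0.5) minus the mean of the gene over all pools. Rows are genes, grouped by role, and columns are pools, with controls left of the vertical line. Blue runs down the column of *Gata6STOP/+* replicate 4, the lowest pool for 27 genes. It runs less evenly down that of control replicate 3, the lowest for 16 genes and the highest for 5. The columns left and right of the line do not differ as blocks.

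Part of this variation was shared among the genes. Over the 7 pools the median Pearson correlation of the 1596 pairs of genes was 0.405, and 77.3% of pairs were above 0. After removal of the genotype means the median was 0.468. These are descriptions over 7 points that share their libraries and embryos. Pairs of other listed genes were not examined, so it is not known whether the 57 genes vary together more than others do. *Nusap1*, *Tpx2*, *Nuf2* and *Ccna2* followed the mean of the other genes most closely (r of 0.938, 0.934, 0.933 and 0.915). By contrast, *Mybl2* (-0.36), *Pttg1* (-0.32), *Foxm1* (-0.17), *Cenpa* (-0.14), *Birc5* (-0.13) and *Aurka* (0.019) did not follow that mean. Whether their correlations differ from 0 was not tested. The median s.d. within a genotype was 0.109 for the 57 genes, 0.126 for all listed genes and 0.098 for the 8338 genes within the same range of CPM.

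Since transcripts of this program share promoter elements that MuvB and NF-Y recognise, the sequence before the transcription start was examined. RefSeq windows (GRCm38.p6, from 250 bases before to 50 after the start) were matched for 48 of the 57 genes. No window was matched for *Ccna2*, *Cdc25c*, *Aurkb*, *Kif20a*, *Tpx2*, *Incenp*, *Smc4*, *Foxm1* and *Dlgap5*. The letters TTTGAA of the cell cycle genes homology region (CHR), to which the MuvB subunit LIN54 binds, were found on either strand in 35 of the 48 genes (72.9%), and in 17.9% of all 32851 windows. The letters CCAAT of the box bound by NF-Y were found in 35 of 48 genes (72.9%), and in 37.4% of all windows. Both were present in 29 genes (60.4%) and in 6.95% of all windows. Some genes have more than 1 window, and counted by window the shares were 74.5, 74.5 and 62.7% of 51. The CHR letters lay close to the start, at a median position of -16, with 36 of 50 matches within 50 bases of it. The 82 CCAAT matches lay further upstream, at a median of -66, and 52 of them fell in the 100 bases before the start. These matches were counted per window. A site in overlapping windows of *Ect2*, *Prc1* or *Bub3* was thus counted in each, at a different position. In 1 case, in *Cdca8*, the matches overlapped. A match is only a string of letters, and no occupancy was measured.

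The 150 bases before the RefSeq start are shown for genes of different roles, with the CHR and CCAAT letters, or their reverse complements TTCAAA and ATTGG, in capitals. *Bub1* is shown as a gene without CHR letters in its window.
*Cdk1* (chr10:69352913-69353062, minus strand): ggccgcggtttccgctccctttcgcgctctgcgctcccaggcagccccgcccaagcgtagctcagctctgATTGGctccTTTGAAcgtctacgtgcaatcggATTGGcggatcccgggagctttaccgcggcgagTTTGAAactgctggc
*Cdc20* (chr4:118437344-118437493, minus strand): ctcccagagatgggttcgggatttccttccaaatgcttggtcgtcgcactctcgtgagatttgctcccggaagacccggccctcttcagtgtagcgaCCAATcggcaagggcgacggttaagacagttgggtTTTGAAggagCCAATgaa
*Top2a* (chr11:99024190-99024339, minus strand): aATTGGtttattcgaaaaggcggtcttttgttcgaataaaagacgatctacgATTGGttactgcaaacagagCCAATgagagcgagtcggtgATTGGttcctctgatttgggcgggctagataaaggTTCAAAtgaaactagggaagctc
*Mki67* (chr7:135716380-135716529, minus strand): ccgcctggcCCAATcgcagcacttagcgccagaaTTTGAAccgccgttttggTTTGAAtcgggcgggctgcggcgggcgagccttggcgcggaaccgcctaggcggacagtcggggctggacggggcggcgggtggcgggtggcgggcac
*Kif11* (chr19:37376232-37376381, plus strand): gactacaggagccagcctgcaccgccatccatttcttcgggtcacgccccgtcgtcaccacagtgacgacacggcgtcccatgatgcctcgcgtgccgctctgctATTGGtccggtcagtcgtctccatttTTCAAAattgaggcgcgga
*Bub1* (chr2:127831860-127832009, minus strand): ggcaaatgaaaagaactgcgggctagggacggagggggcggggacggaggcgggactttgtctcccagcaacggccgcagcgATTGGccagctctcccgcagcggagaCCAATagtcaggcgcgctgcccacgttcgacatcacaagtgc
In *Cdk1*, *Cdc20*, *Top2a* and *Kif11* a CHR match lies near the start, whereas both matches of *Mki67* lie around 100 bases upstream. Presence of the letters did not go with a direction. Among the 35 genes with CHR letters, 18 were higher in *Gata6STOP/+* OFTs and the median log2 difference was 0.0043 (range -0.12 to 0.19). Among the 13 without, 8 were higher and the median was 0.045 (-0.14 to 0.087).

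**Figure D3:**
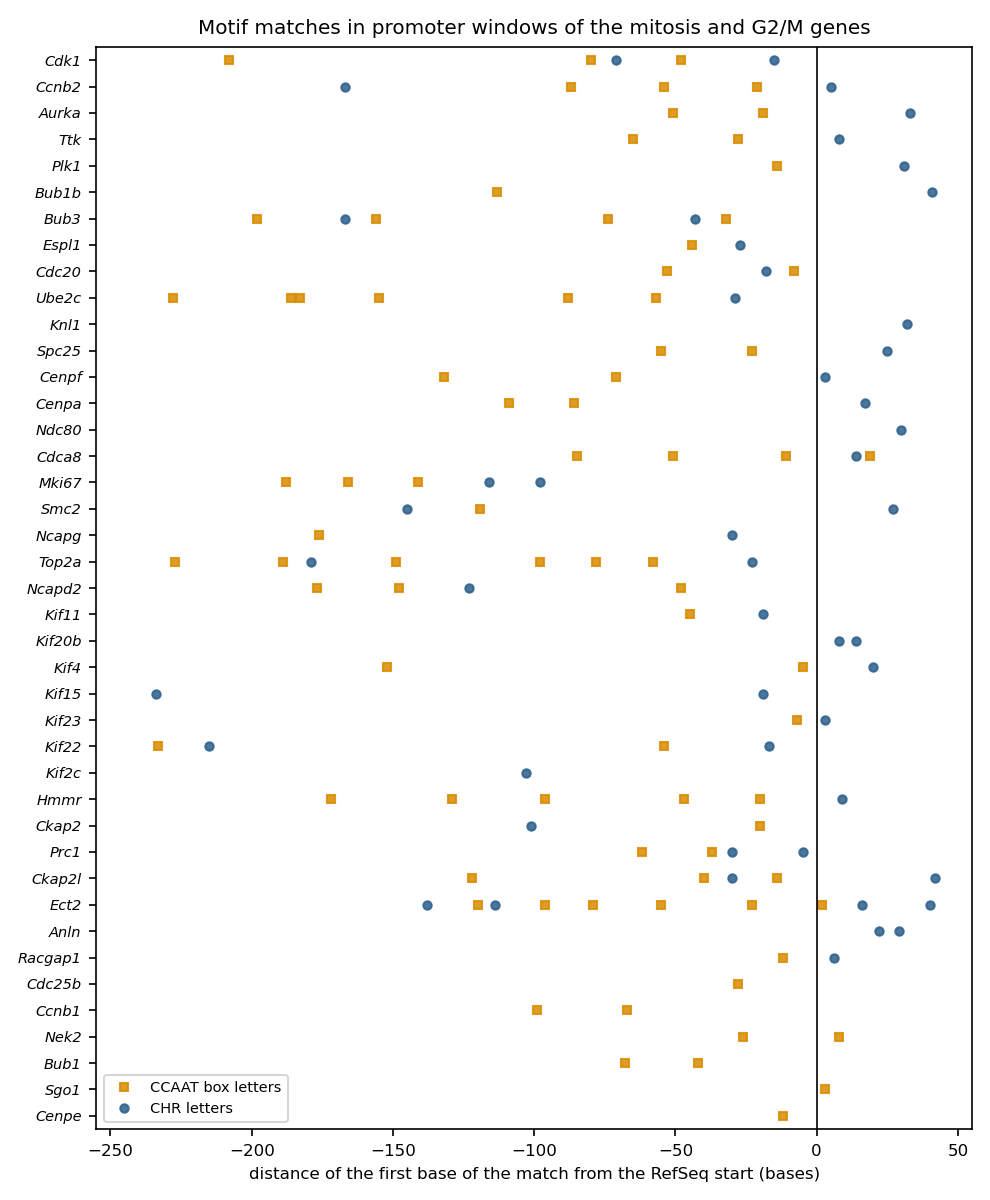
Position of each match to the CHR letters (circles) and CCAAT letters (squares), on either strand, in the promoter windows of the genes that hold at least 1 match. The x axis is the distance of the first base of the match from the RefSeq start (vertical line). CHR matches gather around the start (median -16) and CCAAT matches further upstream (median -66). A site in overlapping windows of 1 gene is drawn for each window.

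Per length of annotated exons, these genes were expressed above most listed genes. The exons of all annotated transcripts of a gene are joined in this length, so levels and their order depend on which transcripts are annotated. The median level of the 57 genes in control OFTs was 15.4 CPM per kilobase of exon, beside 5.61 for all listed genes, and 54 of the 57 lay above the median gene. *Ube2c*, the ubiquitin-conjugating enzyme of the APC/C, was the highest at 52.2±3.07 CPM per kilobase in control and 49.9±7.52 in *Gata6STOP/+* OFTs (mean±s.d.). *Ccnb2* (51.7±3.57 in control), *Cdc20* (48.4±2.17), *Top2a* (46.5±4.03) and *Ccna2* (46.1±3.45) came next, and each of these differed from the gene before it by less than the s.d. of that gene. *Cdc25c*, which encodes a phosphatase that activates CDK1, was the lowest at 3.53±0.23 CPM per kilobase in control and 3.86±0.62 in *Gata6STOP/+* OFTs, followed by *Knl1* (3.67±0.48 in control) and *Kif15* (3.95±0.02), and these neighbours also differed by less than the larger of their s.d.

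Among the regulators, 6 genes encode CDK1, its cyclins and its activating phosphatases, of which 3 were higher and 3 lower (median log2 difference 0.014). *Cdk1*, the kinase that drives entry into mitosis, had 129.6, 133.5 and 147 CPM in the control pools and 127, 136, 131 and 132 CPM in the *Gata6STOP/+* pools, and all 4 *Gata6STOP/+* values fell within or just below the control range (-0.053±0.060). *Ccnb1*, the cyclin B that nuclear CDK1 binds at mitotic entry, had 136, 156 and 158 CPM against 148, 158, 136 and 153 CPM in the same order of pools (-0.010±0.073). Its values spread over the same range in both genotypes. *Ccnb2*, the other B-type cyclin, had 77.8, 74.4 and 85.1 CPM against 75.2, 79.1, 66.1 and 73.5 CPM (-0.11±0.074), and *Gata6STOP/+* replicate 4, and by less than 1 CPM replicate 5, lay below the controls. *Ccna2*, the cyclin of S and G2 phase, had 172, 193 and 199 CPM against 187, 205.5, 176 and 205.5 CPM (0.038±0.075). Low values of *Ccna2* came from control replicate 3 and *Gata6STOP/+* replicate 4. The phosphatase genes *Cdc25b* and *Cdc25c* had log2 differences of 0.062 and 0.11. Adjusted *P*-values of limma were 0.768 to 0.983 over the 6 genes.

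Of 5 mitotic kinases, 1 was higher and 4 were lower (median -0.014). *Plk1*, which acts in centrosome maturation, mitotic entry and cytokinesis, had 97.8, 97.9 and 92.2 CPM in the control pools and 84.2, 98.5, 81.9 and 91.7 CPM in the *Gata6STOP/+* pools. Its 2 lowest values were those of *Gata6STOP/+* replicates 1 and 4, while *Gata6STOP/+* replicate 3 was the highest of all 7 pools, and the difference was -0.11±0.072 (limma, adjusted *P*-value 0.747). *Aurka*, which encodes the Aurora kinase of centrosomes and spindle poles, had 58.5, 60.4 and 53.5 CPM against 56.7, 57.6, 55.2 and 58.4 CPM (-0.011±0.062). *Aurkb*, the catalytic subunit of the chromosomal passenger complex, had 57.3, 51.1 and 51.2 CPM against 51.8, 56.8, 48.1 and 52.2 CPM (-0.026±0.073). For both Aurora kinases the *Gata6STOP/+* values lay within or near the control range. *Nek2*, which acts in centrosome separation, and *Ttk*, which starts checkpoint signalling at kinetochores, differed by 0.054 and -0.014.

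Both transcription factors of the program differed by less than their s.e. *Foxm1* had 94.3, 82.5 and 79.4 CPM in the control pools and 75.6, 88.1, 82.1 and 88.8 CPM in the *Gata6STOP/+* pools (-0.028±0.079), and its highest value came from control replicate 3, the pool in which 31 of the 57 genes were among their lowest 2 values. *Mybl2*, which encodes B-MYB, had 47.3, 38.3 and 42.8 CPM against 41.0, 40.0, 43.4 and 44.5 CPM (-0.015±0.080), with control replicate 3 again the highest. Their adjusted *P*-values were 0.95 and 0.979 (limma).

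In the spindle assembly checkpoint, 2 genes were higher and 2 lower (median 0.024). *Bub3*, a WD-repeat protein that brings BUB1 and BUBR1 to kinetochores, had the smallest *P*-value of the 57 genes. Its values were 114, 116 and 130.5 CPM in the control pools and 112, 114, 109 and 106 CPM in the *Gata6STOP/+* pools. The control and *Gata6STOP/+* pools met at the border, since *Gata6STOP/+* replicate 3 lay just above control replicate 3, and control replicate 5 stood highest. The difference was -0.12±0.063 (limma, unadjusted *P*-value 0.0856, adjusted 0.681), and the exact two-sided permutation test over the 35 ways to part the pools gave *P*=0.0571, where the smallest that this design allows is 0.0286. *Bub3* ranked 1848 of 14732 genes by *P*-value. *Bub1*, a checkpoint kinase, had 63.4, 71.9 and 71.9 CPM against 79.4, 70.7, 66.7 and 74.7 CPM (0.076±0.075), with control replicate 3 the lowest and *Gata6STOP/+* replicate 1 the highest. *Mad2l1* and *Bub1b*, whose proteins inhibit CDC20, differed by 0.087 and -0.028.

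Of the 5 genes of anaphase onset, 1 was higher and 4 were lower, with the lowest median of the role groups (-0.071). *Pttg1*, which encodes securin, the inhibitor of separase, had the lowest log2 difference of the 57 genes. It had 22.0, 22.7 and 18.8 CPM in the control pools and 17.9, 21.5, 19.1 and 18.1 CPM in the *Gata6STOP/+* pools, a mean of 21.2±2.07 CPM in control and 19.2±1.65 CPM in *Gata6STOP/+* OFTs (mean±s.d.). Control replicate 5 lay among the *Gata6STOP/+* values and *Gata6STOP/+* replicate 3 among the controls, and the difference of -0.14±0.096 did not pass the test (limma, adjusted *P*-value 0.763). *Cdc20*, an activator of the APC/C, had 94.1, 86.1 and 91.2 CPM against 83.6, 89.4, 79.3 and 92.5 CPM (-0.071±0.067). *Ube2c* had 135, 128 and 144 CPM against 105.5, 152, 125.5 and 136 CPM (-0.077±0.11), and both extremes of the 7 pools, replicates 1 and 3, were *Gata6STOP/+*. *Espl1*, which encodes separase, and *Sgo1*, which encodes shugoshin, the protector of centromeric cohesin, differed by -0.050 and 0.031. The group median stayed below 0 when any single pool was left out (-0.10 to -0.032).

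At the centromere and kinetochore, 6 genes were higher and 1 was lower (median 0.036). *Knl1*, which encodes the kinetochore scaffold on which BUB proteins assemble, had the highest log2 difference of the 57 genes. Its values were 26.9, 34.7 and 32.5 CPM in the control pools and 38.4, 34.6, 31.1 and 39.5 CPM in the *Gata6STOP/+* pools. Control replicate 3 was the lowest and 2 *Gata6STOP/+* pools, replicates 1 and 5, were the highest, with the others intermixed. The difference was 0.19±0.11 (limma, unadjusted *P*-value 0.0972, adjusted 0.696). *Cenpa*, the histone H3 variant that marks centromeres, had 117, 108 and 114 CPM against 102, 127, 116 and 110.3 CPM (0.0049±0.075). *Nuf2*, *Spc25* and *Ndc80*, subunits of the complex that couples kinetochores to microtubules, differed by 0.065, 0.053 and 0.0043. The large coiled-coil kinetochore proteins *Cenpf* and *Cenpe* differed by 0.036 and -0.0059. Without control replicate 3, only 3 of these 7 genes were higher and the median was -0.011, the lowest of the medians found on leaving out each pool in turn (highest 0.099).

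Partners of Aurora B in the passenger complex showed 1 gene higher and 2 lower (median -0.046). *Birc5*, which encodes survivin, had 70.1, 62.6 and 63.9 CPM against 61.3, 74.9, 67.9 and 66.8 CPM (0.045±0.076), with the highest and the lowest value in *Gata6STOP/+* pools. *Cdca8* (borealin) and *Incenp*, the scaffold, differed by -0.045 and -0.053.

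Of the 7 genes of chromosome structure, 5 were higher and 2 lower (median 0.069). *Mki67*, which encodes the proliferation antigen Ki-67 on the surface of mitotic chromosomes, had 343, 388 and 433 CPM in the control pools and 439.5, 412, 378.5 and 457.5 CPM in the *Gata6STOP/+* pools, a mean of 388±45.1 CPM in control and 422±34.5 CPM in *Gata6STOP/+* OFTs (mean±s.d.). The control pools alone spanned 343 to 433 CPM, and only control replicate 3 lay below all *Gata6STOP/+* values, so that the difference of 0.12±0.090 was within the spread of pools (limma, adjusted *P*-value 0.783). *Top2a*, the topoisomerase that untangles sister chromatids, had 379.5, 428 and 450.5 CPM against 479, 402, 375 and 469 CPM (0.036±0.096). *Gata6STOP/+* replicate 1 was its highest pool and *Gata6STOP/+* replicate 4 its lowest. *Smc4*, an ATPase subunit of condensin, had 174, 212 and 212 CPM against 215, 226, 193.5 and 239 CPM (0.13±0.090, limma adjusted *P*-value 0.757), and again control replicate 3 stood below the rest. Its partner *Smc2* differed by 0.094, and *Ncapg*, *Ncapd2* and *Ncaph*, subunits of condensin I, by 0.069, -0.021 and -0.069.

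Mitotic kinesins were split, with 4 higher and 4 lower (median 0.031). *Kif11*, the motor that pushes spindle poles apart, had 105, 120 and 114 CPM in the control pools and 131, 125, 109 and 132 CPM in the *Gata6STOP/+* pools (0.13±0.079, limma adjusted *P*-value 0.722). *Gata6STOP/+* replicates 1, 3 and 5 lay above all controls and replicate 4 between them. *Kif20b* had the lowest single value relative to its mean, 32.2 CPM in control replicate 3 against 41.3 to 46.6 CPM in the other 6 pools, and a difference of 0.11. The other kinesins of the set, in spindle assembly (*Kif15*), on chromosome arms (*Kif22*, *Kif4*), at kinetochores (*Kif2c*) and in the midzone (*Kif20a*, *Kif23*), ranged from -0.051 for *Kif2c* to 0.073 for *Kif4*.

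Of 7 other spindle and microtubule proteins, 5 were higher and 2 lower (median 0.055). *Hmmr*, a spindle pole protein, had 61.3, 68.7 and 69.2 CPM against 73.0, 73.5, 66.6 and 74.8 CPM (0.12±0.068, limma adjusted *P*-value 0.72), and the exact two-sided permutation test over the pools gave *P*=0.114. *Tpx2*, the activator of Aurora A, had the smallest s.e. of the 57 genes, with 139.6, 141 and 147 CPM against 147, 147, 139 and 149 CPM (0.032±0.054). *Nusap1*, *Dlgap5*, *Ckap2*, *Prc1* and *Ckap2l* ranged from -0.044 to 0.065. The 3 cytokinesis genes were all higher (median 0.10). *Ect2*, the exchange factor that activates RhoA at the cleavage site, had 59.7, 74.0 and 70.3 CPM against 77.7, 73.5, 68.3 and 76.6 CPM (0.13±0.081, limma adjusted *P*-value 0.743), with control replicate 3 lowest. *Anln*, an actin-binding scaffold of the cleavage furrow, and *Racgap1*, a subunit of centralspindlin, differed by 0.10 and 0.010. When each pool was left out in turn, the median stayed below 0 for the genes of anaphase onset. It stayed above 0 for those of chromosome structure (0.012 to 0.14), spindle proteins (0.012 to 0.14) and cytokinesis (0.035 to 0.15). For each of the other role groups it changed sign. These fits share pools, and how often groups of this size drawn from other genes keep their sign was not tested.

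These small differences were in part ordered by the summed length of annotated exons. This length joins the exons of all annotated transcripts of a gene and is not the length of a single transcript. Exon length was 1531 to 15433 bases over the 57 genes (median 4934, beside 4327 for all listed genes). The Spearman correlation of the log2 difference with exon length was 0.437 across the 57 genes and 0.207 across 14716 listed genes with a length, given as a description, since genes of the same libraries are not independent. In the 19 shortest genes, up to 4329 bases, 7 were higher and 12 lower (median -0.026), and the median of all listed genes of such length was -0.027. In the 19 of middle length the median was 0.0049, beside 0.0055. In the 19 longest, from 6341 bases, 14 were higher and 5 lower (median 0.061), and the median of all listed genes of that length was 0.033, with 63.6% of them higher. *Pttg1*, *Plk1* and *Ccnb2* are short, *Knl1*, *Kif11* and *Mki67* are long, and *Bub3*, with a long annotated exon length and a difference of -0.12, was apart from this order. The role groups also differ in length. Of the genes of anaphase onset, *Cdc20*, *Pttg1*, *Ube2c* and *Sgo1* have 1868, 2000, 2600 and 3810 bases, and *Espl1* has 8749. Genes of chromosome structure have 4307 to 10061 bases, spindle proteins 3137 to 8225 and cytokinesis genes 5386 to 9063. The part of length in the medians of the role groups was not tested. Relations with length also differed between pools of the same genotype. The correlation of the deviation from the mean of all pools with length was -0.391 in control replicate 3 and -0.285 in *Gata6STOP/+* replicate 3, and 0.399 and 0.477 in *Gata6STOP/+* replicates 1 and 5. The correlation of the genotype difference with length across the 57 genes was 0.297 to 0.495 when each pool was left out in turn. What in the libraries or the tissue goes with length was not tested.

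**Figure D4:**
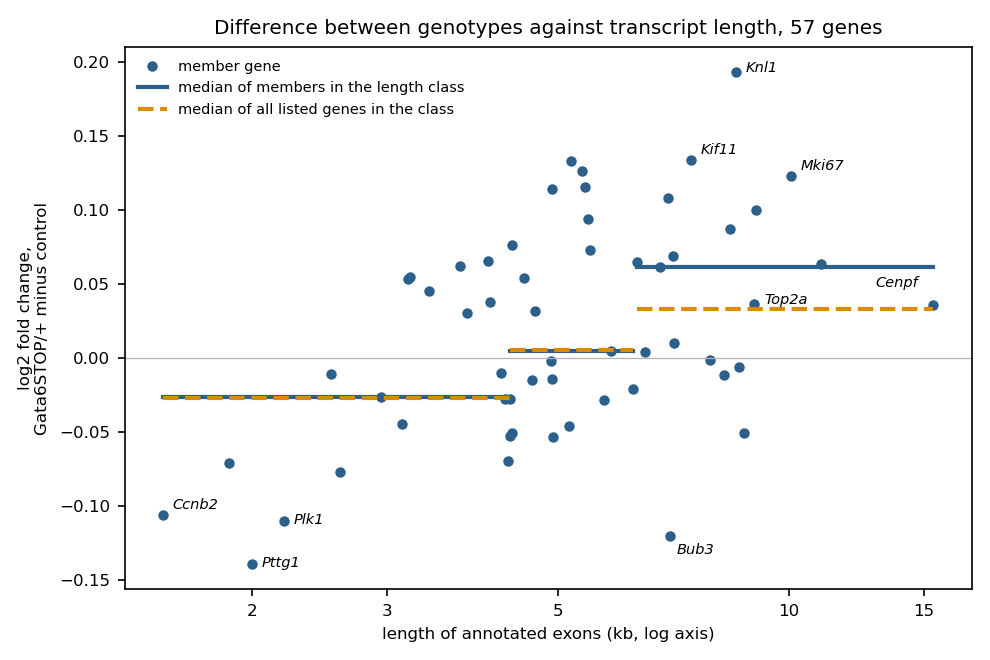
Log2 fold change of *Gata6STOP/+* over control for each of the 57 genes against the summed length of its annotated exons (kilobases, log axis). Solid lines are medians of the 57 genes in 3 classes of length and dashed lines are medians of all listed genes in the same classes. Medians rise from -0.026 to 0.061 over the classes for the 57 genes and from -0.027 to 0.033 for all listed genes.

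Other genes of the cell cycle, from lists written by hand, were compared in the same way. Of 59 other G2/M and mitosis genes, 0 passed the adjusted threshold with limma, 2 had an unadjusted *P*-value under 0.05, 34 were higher and the median was 0.018. *Zwilch*, a subunit of the kinetochore complex that brings in dynein, had 37.5, 38.8 and 38.6 CPM against 41.4, 47.3, 41.8 and 44.0 CPM (0.18±0.067, limma adjusted *P*-value 0.522). *Mastl*, the Greatwall kinase that restrains the phosphatase opposing CDK1, had 22.8, 22.7 and 22.8 CPM against 29.9, 25.5, 23.1 and 26.8 CPM (0.20±0.089, adjusted 0.614). *Arhgap11a*, which inactivates RhoA, had 76.1, 74.7 and 71.5 CPM against 82.3, 78.1, 77.8 and 91.4 CPM (0.15±0.068, adjusted 0.624). In these 3 of 59 genes (5.08%) every *Gata6STOP/+* pool was above every control pool, beside 8.47% of all listed genes not overlapping in either direction.

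The 15 genes of the APC/C and its activator *Fzr1* had a median of -0.011, and only *Anapc5*, a scaffold subunit, had all *Gata6STOP/+* pools below control (410, 402 and 394 CPM against 387, 391, 389.9 and 378 CPM, -0.056±0.054). For the 12 genes of MuvB, DREAM and the pocket proteins, 8 were higher (median 0.036). *Tfdp2*, a dimerization partner of E2F factors, had 43.6, 45.8 and 47.0 CPM against 55.1, 48.6, 50.8 and 54.9 CPM (0.20±0.067, limma adjusted *P*-value 0.466). Of 30 S-phase genes, 11 were higher and the median was -0.0082. In that list *Ccne2*, a cyclin that activates CDK2 at the start of S phase, had 33.6, 41.9 and 36.6 CPM against 46.8, 42.2, 46.9 and 48.2 CPM (0.30±0.084, limma adjusted *P*-value 0.354), and *Gins2*, a subunit of the replicative helicase, had 35.9, 35.4 and 39.6 CPM against 30.3, 32.7, 32.8 and 32.8 CPM (-0.20±0.070, adjusted 0.497). *Tfdp2*, *Ccne2* and *Gins2*, and *Cdk6* and *Cdkn2b* below, each had all *Gata6STOP/+* pools on the same side of all controls. Such genes were 1 of 15 APC/C (6.67%), 1 of 12 MuvB and pocket (8.33%) and 2 of 30 S-phase genes (6.67%). They were also 1 of 6 G1 genes and 1 of 6 listed inhibitors (16.7% each), beside 8.47% of all listed genes. *Cdk6*, a partner of D-type cyclins in G1, had 75.4, 72.4 and 79.9 CPM against 91.2, 92.5, 86.4 and 85.3 CPM (0.23±0.060, limma adjusted *P*-value 0.333), and 4 of the other 5 G1 genes were lower. *Cdkn2b*, which encodes the CDK4 and CDK6 inhibitor p15, had 4.94, 4.07 and 4.59 CPM against 3.26, 2.43, 3.95 and 2.76 CPM (-0.50±0.17, adjusted 0.466), and the 6 listed of 7 CDK inhibitors had a median of -0.038.

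**Figure D5:**
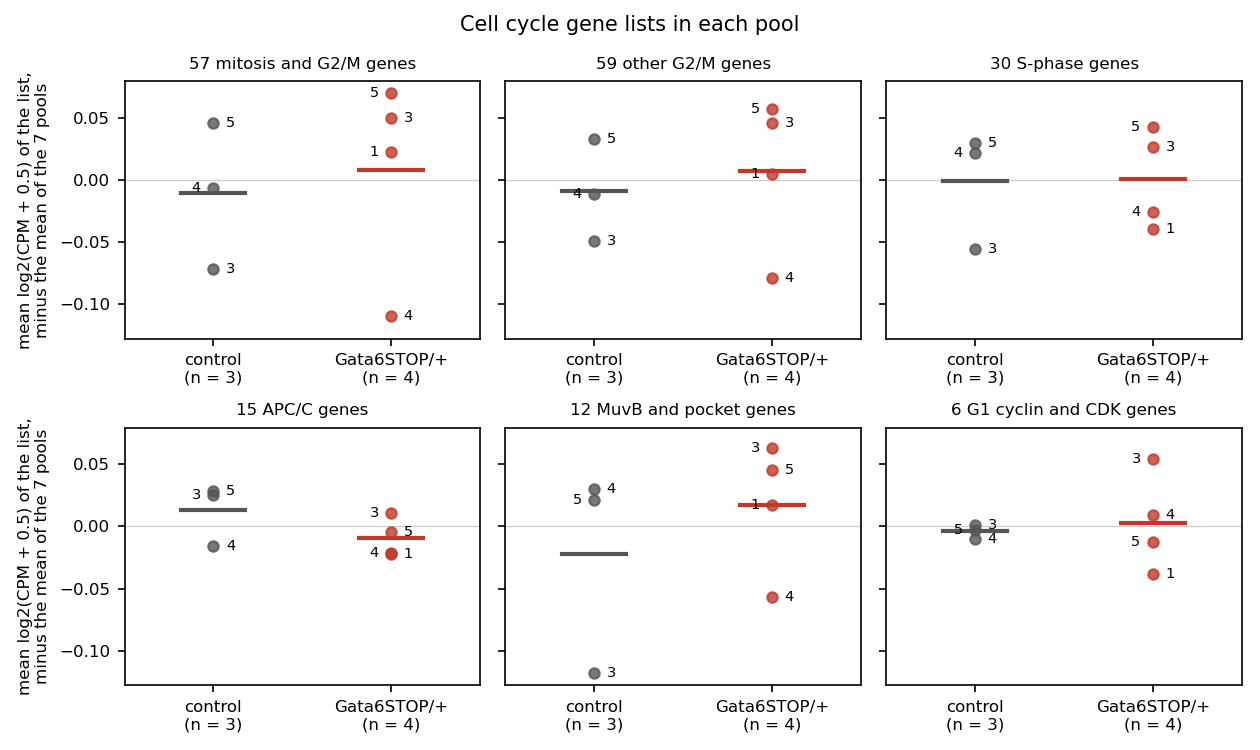
Mean log2(CPM + 0.5) of 6 lists of cell cycle genes in each pool, minus the mean of the 7 pools. Points are pools, numbered by replicate, and bars are genotype means. For the 57 genes, the means of the *Gata6STOP/+* pools ranged from the lowest to the highest of all 7, with replicate 4 lowest and replicate 5 highest, and the other G2/M genes were ordered in the same way at both ends.

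For some genes the reads may be shared with others. Exons of 10 of the 57 genes overlap, on the opposite strand, exons of another listed gene, over 2.47 to 29.3% of their length, with the largest overlap between *Kif20a* and *Cdc23*, and it is not given whether strand was used in counting. Among the named genes these are *Ccna2* (12.5%, *Exosc9*) and *Cdc20* (2.84%, *Elovl1*). A search of the annotation by gene name also found copies of *Ccnb1*, *Ccnb2*, *Kif22* and *Kif4* that are not among the listed genes. Values of these 4 genes are uncertain to the extent that reads were split between copies. Copies annotated under other names were not searched for.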

How the data were processed

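Single-end RNA-seq libraries were made with a directional kit from poly(A) RNA of 7 pools of OFTs. The methods give pools of 4 pairs of OFTs and 3 pools per genotype, whereas the labels give 4 *Gata6STOP/+* pools, all of which were used. According to the methods and labels, the authors removed adapters with Cutadapt and counted reads per Ensembl gene with RSEM (GRCm38). Their filter required 1 CPM or more in 3 samples or more, and edgeR's TMM factors were applied to the library sizes. The deposited values are CPM of the normalized library size, and 14732 of 14732 genes met that filter. The number of per-sample columns left without a sample was 0. Library totals per pool lay between 17783655 and 34467710 reads, and each of the 57 genes had 323 reads or more in each pool, so that counting error adds to the spread mainly for the lowest genes.

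CPM values were tested in R 4.3.3 with limma 3.58.1 and its trend option, after taking log2(CPM + 0.5). Tests were two-sided, and *P*-values were adjusted over all listed genes by the Benjamini-Hochberg procedure (threshold 0.05). Fold changes on that scale understate changes of low genes. Reads were recovered from the CPM steps (100% of values whole within 0.001; the smallest value stood for up to 6 reads) and tested with edgeR 4.0.16 and DESeq2 1.42.0 as alternatives. The other alternatives were constants of 0.1 and 2, filters of a mean of 5 CPM or of 1 CPM in every pool, a block for the replicate number, scaling by median-of-ratios factors, and leaving out each pool. The fits were tested on simulated reads. Exon lengths are from GENCODE M21 and promoter windows from RefSeq (GRCm38.p6). Single values were permuted over 35 partitions of the pools.

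The members and lists were chosen with earlier results of these data known. Named with values are 17 central genes chosen for their function, the 10 genes of the set with the smallest *P*-values, the 3 highest and 3 lowest differences, the highest and lowest level per kilobase, and, of other cell cycle lists, genes with an unadjusted *P*-value under 0.05 or groups that did not overlap. *Tpx2*, *Kif20b* and *Ndc80* were added after their values were seen, and the other members are given by difference, count and range.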

Additional observations from a re-analysis of the deposited data

Results flagged for a closer look

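For each of the 57 genes and 18 lists, the 4 *Gata6STOP/+* pools were examined for a pool far from the others (Dixon's test, critical value 0.829). By chance about 1 in 20 groups is picked out. *Ndc80* was picked out for *Gata6STOP/+* replicate 4, with 36.2 CPM beside 41.5, 41.5 and 41.9 CPM in the other pools of that genotype. The mean log2 value of the spindle assembly checkpoint genes was picked out for the same pool, at 6.449 beside 6.542 to 6.544 in the others. The control group, with 3 pools, was not examined in this way.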

How the results depend on the processing

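The count of 0 called genes among the 57 held under each alternative run. Over all listed genes the count, 0 with limma, was 1 with a constant of 0.1, 105 with edgeR's likelihood ratio test, 88 with DESeq2 and 0 to 13 on leaving out a pool (13 without control replicate 4). Over all listed genes, same-numbered pools 3, 4 and 5 correlated at -0.0084, -0.12 and -0.0016 in their deviations from the genotype means. No pool with a same-numbered partner correlated best with it there, so the numbers were not taken to pair pools. Over the 57 genes alone these correlations were 0.383, -0.236 and 0.194. *Gata6STOP/+* replicates 3 and 5, but not 4, then correlated best with the control of their own number. No control did so in turn: control replicates 3, 4 and 5 correlated best with *Gata6STOP/+* replicates 4, 1 and 1 (0.44, 0.364 and 0.289). With the replicate block, limma called 14 genes, edgeR's quasi-likelihood test 13 and its likelihood ratio test, added after the values were seen, 118, with none of the 57 among them. In these 3 fits *Top2a* was -0.016 with each tool, *Foxm1* 0.019 and *Ube2c* 0.018. The block leaves *Gata6STOP/+* replicate 1 without a partner, so that the limma fold changes of the blocked fit equal those without that pool.

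Leaving out 1 pool at a time gave 0 to 3 of the 57 genes with an unadjusted *P*-value under 0.05. The 3, without *Gata6STOP/+* replicate 4, were *Knl1*, *Kif11* and *Ncapg* (limma, adjusted *P*-values 0.639, 0.616 and 0.678), and such genes were 7.36% of all listed genes in that fit. Genes whose groups did not overlap numbered 1 to 9 (9 without *Gata6STOP/+* replicate 4, where 13.3% of all listed genes did not overlap, and 3 without control replicate 5, where 16.2% did not). The number higher in *Gata6STOP/+* was 26 to 43 and the median -0.0088 to 0.053. The sign turned for *Cdk1* (-0.090 to 0.00039), *Ccna2* (-0.024 to 0.082), *Ccnb1* (-0.079 to 0.031), *Aurka* (-0.061 to 0.026), *Aurkb* (-0.067 to 0.027), *Foxm1* (-0.078 to 0.045), *Mybl2* (-0.091 to 0.059), *Ube2c* (-0.16 to 0.018), *Cenpa* (-0.048 to 0.057), *Birc5* (-0.0041 to 0.094) and *Top2a* (-0.034 to 0.10). The number of pools and, for the genes with the fewest reads, counting error limit the precision. The cause of these changes was not tested beyond the smaller number of pools.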
